A study of Mus musculus with 6 samples.

Results

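The cells described here are CD8 T cells of the aged mouse lung that carry message for granzyme K (Gzmk). A cell barcode with at least 500 genes, at least 1000 unique molecular identifiers (UMIs, each standing for 1 captured transcript) and at most 15% mitochondrial UMIs was a CD8 T cell when it held at least 1 UMI each of Cd3e and Cd8b1 and none of Cd4, Trdc or Cd79a. It was a member when it also held at least 2 UMIs of Gzmk. The members were thus chosen by measured UMI counts of 6 genes. This rule gave 871 cells, which were 35.1% of 2481 CD8 T cells and 0.983% of the 88616 barcodes that passed the filters, out of 94392 deposited. The p16-DTR-labelled libraries held 118, 261 and 203 members and the control libraries 80, 94 and 115. The main comparison set, called CD8 T cells without Gzmk below, was the 1504 CD8 T cells with no Gzmk UMI, and the 106 cells with exactly 1 UMI entered neither set. Because Gzmk, Cd3e, Cd8b1, Cd4, Trdc and Cd79a chose the cells, these 6 genes were left out of the tests between cell sets. Gzmk, Cd3e and Cd8b1 stayed among the genes of the fit between groups, where none was called, and nothing is read from them.

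Lungs came from male C57BL/6 mice of 21 months, 3 with the genotype p16-CreERT2/R26-LSL-DTR (p16-DTR) and 3 with p16-CreERT2 alone (control). In the first genotype a tamoxifen-activated Cre recombinase under the p16 promoter switches on a diphtheria toxin receptor, and the controls carry the same Cre without the receptor. Tamoxifen (5 days), a gap of 2 weeks, diphtheria toxin (5 days) and 2 weeks of recovery were given alike to every mouse, controls included, so neither drug separates the groups. After liberase digestion, 20000 CD45-negative and 9000 CD45-positive sorted cells of 1 mouse were combined in each 10x Genomics 3' library. Shares of all barcodes therefore follow the sort as well as the tissue.

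Granzymes are serine proteases stored in the granules of killer lymphocytes. Granzyme B cuts caspases and their substrates in target cells, whereas granzyme K is known less for killing than for acting on extracellular proteins and on inflammation. CD8 T cells that express Gzmk together with the inhibitory receptor PD-1 (Pdcd1) and the nuclear factor Tox are a known feature of old mouse tissues and are often found as expanded clones. Naive CD8 T cells, by contrast, hold the lymph node homing receptor Ccr7 and the factors Lef1, Tcf7 and Satb1.

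Some features of the libraries bear on all results. Members had a median of 14513 UMIs, against 22468.5 in CD8 T cells without Gzmk, and the library medians of members lay between 14154 and 15287. Median genes per member were 3828.5, 3916 and 3855 in the p16-DTR-labelled libraries and 3964.5, 3917 and 4021 in the controls, lower in the first without overlap (exact permutation p = 0.1), and the part of this in the group results was not tested. Pairs of libraries shared 59 to 94 barcodes, and no member barcode occurred in more than 1 library. The toxin scheme is aimed at p16-expressing cells, but members of the p16-DTR-labelled libraries held more Cdkn2a, the gene of p16, than those of the controls, as given below. Directions between groups therefore hold for the libraries as labelled. In the second library labelled p16-DTR, 153 of 261 members held a UMI of the T cell receptor gene segments Trbv17 or Trav3-1, and several group results are given with and without them. No doublet caller was run, and 0 to 7 members per library had over 50000 UMIs.

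Gzmk (ENSMUSG00000042385) lies on chromosome 13 at 113171608 to 113225908, minus strand, and Pdcd1 (ENSMUSG00000026285) on chromosome 1 at 94038305 to 94052553, minus strand (GENCODE M21, GRCm38). The 250 bases before the RefSeq start of each gene (GRCm38.p6, minus strand, 5′ to 3′) are shown because these are the gene that defines the cells and the receptor most often named with it. The Gzmk stretch is chr13:113180966-113181215, which lies inside the longer GENCODE gene span, and the Pdcd1 stretch is chr1:94052554-94052803. Capitals mark the T-box half-site GGTGTGA, the kind of site that Eomes and T-bet recognise, and the NFAT core GGAAA, both searched on both strands.
Gzmk: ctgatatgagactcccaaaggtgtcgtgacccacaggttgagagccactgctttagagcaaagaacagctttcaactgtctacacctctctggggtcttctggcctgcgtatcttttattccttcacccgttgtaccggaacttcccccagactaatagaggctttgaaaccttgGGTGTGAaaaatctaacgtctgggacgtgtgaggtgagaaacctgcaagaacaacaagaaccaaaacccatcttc
Pdcd1: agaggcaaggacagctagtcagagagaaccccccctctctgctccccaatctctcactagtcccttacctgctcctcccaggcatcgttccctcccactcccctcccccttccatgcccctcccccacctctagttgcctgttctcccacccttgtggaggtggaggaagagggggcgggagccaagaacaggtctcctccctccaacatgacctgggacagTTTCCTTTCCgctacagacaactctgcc
The Gzmk window held 1 T-box half-site, beginning 75 bases before the start, and no NFAT core. The Pdcd1 window held 2 NFAT cores, beginning 28 and 23 bases before the start, and no T-box half-site. Over 32851 RefSeq windows of 300 bases, 3.98% held the half-site and 61.3% the NFAT core. The other motifs searched were the AP-1 site TGANTCA (7.81% of windows), the RUNX site TGTGGT (16.8%) and the TCF/LEF core CTTTGA (16%), of which Gzmk had only the last, 88 bases before the start. These are matches of letters and not measured binding.

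Gzmk itself split CD8 T cells into a large group at 0 and a broad tail, given here as a description of the rule. Of all CD8 T cells 4.27% had 1 Gzmk UMI, 17% had 4 to 9 and 10.3% had 10 or more. Median Gzmk UMIs per member were between 5 and 8.5 over libraries, with up to 49 in 1 cell. Just inside the threshold were 94 cells with 2 UMIs and 98 with 3. As a measure of free RNA, 9 of 5684 B cells had any Gzmk UMI (0.158%, exact 95% interval 0.0724% to 0.300%) at a median of 14286.5 UMIs, and 0 had 2 or more, which allows a share of up to 0.0528% by the limit of 3 counts (0.0649% by the exact 95% interval). Natural killer cells had 2 or more in 15 of 1103 cells (1.36%). These intervals and limits cover counting error only. B cells here had at least 2 Cd79a UMIs, at least 1 Ms4a1 UMI and no Cd3e UMI. Natural killer cells had at least 1 UMI each of Ncr1 and Klrb1c and none of Cd3e or Cd79a. Barcodes with a Cd3e UMI were thus left out, so these shares can understate free T cell RNA.

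Around the threshold the cells differed by degree, in order of Gzmk UMIs for Tox but not for Pdcd1. After every cell was thinned to 5000 UMIs, Tox was found in 38.5% of cells with no Gzmk UMI, 51.5% with 1, 59.8% with 2, 75.5% with 3 and 91.0% with 4 or more. Pdcd1 was found in 2.57%, 27.2%, 17.4%, 40.4% and 37.3% of the same cells. Ccr7 was found in 66.1%, 13.6%, 15.2%, 7.45% and 9.57%. Cells with 1 Gzmk UMI were thus closer to members than to cells with none for Ccr7, and between them for Tox.

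The first question was whether the cells match their label, using genes that the rule did not use. They did: members held Pdcd1 and Tox in every library far more often than CD8 T cells without Gzmk. Pdcd1, an inhibitory receptor of activated T cells, was found in 33.9%, 43.4% and 32.8% of thinned members in the p16-DTR-labelled libraries and in 30.4%, 37.2% and 26.1% in the controls. In CD8 T cells without Gzmk it was found in 1.06% to 3.62% of cells and in B cells in 0.0867%. The means were 34.0% ± 5.93 and 2.61% ± 0.983 (SD, n = 6 libraries), and the paired exact permutation test gave p = 0.031, the smallest that 6 pairs allow. Tox (ENSMUSG00000041272, chromosome 4, 6686353 to 6991557), a nuclear factor of chronically stimulated T cells, was found in 85.1% ± 8.75 of members and in 39.2% ± 3.31 of the others, higher in 6 of 6 libraries (exact p = 0.031). Adjusted over 247 listed genes both p-values were 0.0628. Without thinning, Pdcd1 was found in 54.1% and 3.87% of cells and Tox in 91.6% and 66.4%. T cell genes outside the rule were present too, with Cd3g in 89.1% ± 3.07 of members, Trac in 83.8% ± 4.12 and Cd8a in 72.1% ± 8.79, against 0.492%, 0.474% and 0.108% of B cells. Members were chosen to hold Cd3e and these B cells to lack it, which widens that contrast. Members of p16-DTR replicate 3 and control replicate 3 had the lowest Tox shares, 81.6% and 70.4%, next to 83.0% in control replicate 2.

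Transcripts listed as markers of other cell types were present in nearly all members: only 0, 0, 3, 0, 1 and 1 members per library, in the order p16-DTR then control, held fewer than 2 UMIs of them in all. Foxp3, the factor of regulatory T cells, had 0 UMIs in members of all 6 libraries, and Pax5 of B cells had 1 or 2 in each library. Of the listed natural killer markers, Ncr1 had 0, 0, 1, 16, 0 and 0 UMIs and Klra4 had 0, 0, 1, 0, 16 and 0. Of 4 B cell markers tested, Igkc, an immunoglobulin light chain gene, was called higher in members than in CD8 T cells without Gzmk (83.4 ± 20.2 against 29.4 ± 4.75 CPM, counts scaled to a summed total of 1000000 UMIs, SD, n = 6, edgeR adjusted p 5.26e-05). Ighm, an immunoglobulin heavy chain gene, was called lower (40.7 ± 9.55 against 84.7 ± 14.3 CPM, edgeR adjusted p 0.000109). The summed B cell markers in members were at 112 to 199.6 per 1000000 UMIs. Of the 10 genes listed as myeloid markers, 10 were measurable, 3 (Cd68, Cst3 and Itgax) were called higher in members than in CD8 T cells without Gzmk and 0 lower, where 13.0% of all genes tested were called higher and 13.7% lower. Their summed level in members ranged from 1663 to 3276 per 1000000 UMIs in the p16-DTR-labelled libraries and from 792 to 3295 in the controls. Lyz2, an abundant lysozyme gene of macrophages, averaged 948 ± 505 CPM in members and 559 ± 283 in the others (SD, n = 6), which was not called (edgeR adjusted p 0.135, log2 fold change 0.47, higher in 5 of 6 libraries). It was called without control replicate 2 (log2 fold change 0.67, edgeR adjusted p 0.00831) and with library size alone (0.62, 0.0468). Tyrobp, an adaptor of myeloid and natural killer cells, had a log2 fold change of 0.43 and was not called, but it was called under 5 alternatives, among them without control replicate 2 (0.52, edgeR adjusted p 0.0357) and without p16-DTR replicate 1 (0.54, 0.0412). The part of such transcripts in the results was not tested.

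Members were then compared with CD8 T cells without Gzmk on UMIs summed per library and set, with the library as a block. Members had more message of most listed checkpoint genes, cytotoxic genes and T cell transcription factors, and less of every listed naive gene tested. Of these, the checkpoint genes were also called higher in the majority against cells without Ccr7, while most calls of the other lists were not made there. Calls fell over all genes too, from 26.7% to 3.68% of those tested. Of 11508 genes tested outside the rule, 3078 were called at an adjusted p below 0.05 (26.7%), with 1497 higher (13.0%) and 1581 lower (13.7%), and the median log2 fold change over all genes was 0.02. The split depended on scaling: with library size alone it was 3130 higher and 1029 lower, and the median of all genes moved to 0.17. Because the 2 sets differ in depth and were cut on a T cell gene, the lists below are read against those shares. All lists were chosen with earlier results of these data known.

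The comparison set is largely made of cells with naive transcripts, Ccr7 being found in 67.8% ± 8.43 of them, so the directions hold against that mixture. The fit was repeated against the CD8 T cells without Gzmk that also had no Ccr7 UMI (13 to 115 cells per library), and against those with no UMI of Ccr7 or Lef1 (11 to 25 cells in 5 libraries and 0 in control replicate 2). Both alternatives were chosen after seeing the data, with the genes that define each set left out. Against the cells without Ccr7, 359 of 9755 genes were called (3.68%), 142 higher (1.46%) and 217 lower (2.22%). Against the cells without Ccr7 or Lef1, 600 of 8701 were called (6.9%), 216 higher (2.48%) and 384 lower (4.41%). The latter cells hold another kind of T cell too: Il23r, the interleukin 23 receptor chain of type 17 lymphocytes, was at 593 ± 260 CPM in them and at 0 in members of the same 5 libraries. By definition they are a part of the cells without Ccr7, 20 of 38 in p16-DTR replicate 2, so that set holds them too. Pdcd1 and Tox were called higher in members against both sets, with log2 fold changes of 2.18 and 2.31 against the first and 1.72 and 2.06 against the second. Of the myeloid markers 0 of 9 were called against the first set (median 0.77) and 1 of 9, Itgax, against the second (median 1.56), where all 9 were positive in both.

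**Figure D1:**
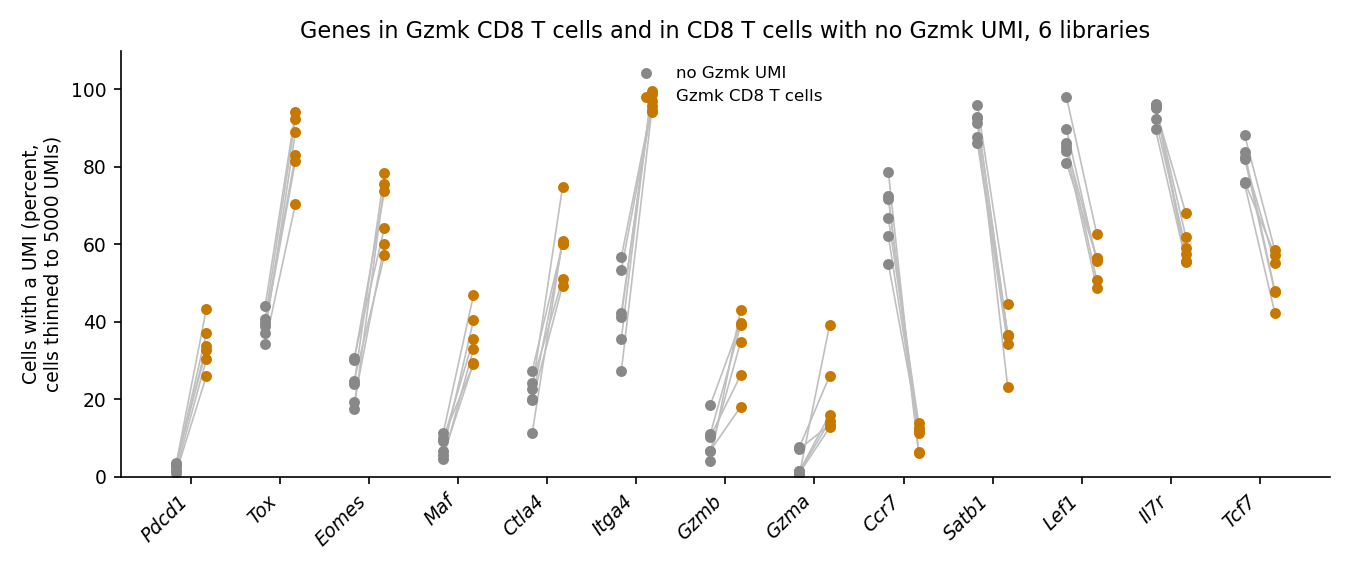
Percent of cells with at least 1 UMI of each gene (vertical axis), after thinning every cell to 5000 UMIs, in CD8 T cells with no Gzmk UMI (grey) and in Gzmk CD8 T cells (orange). Each point is 1 of 6 libraries and lines join the sets of a library. Pdcd1 lies at 26.1% to 43.4% in members and at 1.06% to 3.62% in the other cells, and Ccr7 shows the opposite order.

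Checkpoint and exhaustion genes stood highest. Of 16 measured, 13 were called higher, 0 lower and 3 were not called, with a median log2 fold change of 1.88. Pdcd1 reached 115, 143 and 104 CPM in members of the p16-DTR-labelled libraries and 87.4, 100.1 and 103 in the controls. In CD8 T cells without Gzmk it was 3.72, 7.05 and 7.17 CPM, and 1.90, 2.78 and 3.28 CPM. All 6 values of members lay above all 6 of the other cells, with a log2 fold change of 4.46 ± 0.19 (SE) and an edgeR adjusted p of 1.69e-06. Tox averaged 1229 ± 211 CPM against 146 ± 11 (SD, n = 6; log2 fold change 2.90 ± 0.08). Ctla4, which competes with Cd28 for its ligands, averaged 449 ± 95.5 against 117 ± 40.2 CPM (log2 fold change 1.85). Nr4a2, a nuclear receptor switched on by T cell receptor signals, averaged 404 ± 39.3 against 83.6 ± 18.7 CPM (log2 fold change 2.13). Tigit was found in 43.5% ± 4.60 of thinned members against 12.5% ± 1.76, Lag3 in 8.26% ± 3.62 against 0.119% ± 0.199 and Havcr2 (TIM-3) in 11.3% ± 4.37 against 1.48% ± 0.961. At this depth a cell with no UMI may still express the gene. Against the cells without Ccr7, 9 of 16 were called higher and 0 lower (median 1.36), and against those without Ccr7 or Lef1 10 were higher and 1, Ikzf2, lower (median 1.82).

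Among 16 cytotoxic genes tested, 11 rose, 2 fell and 3 were not called, with a median log2 fold change of 0.91. The neighbours in the granule differed in level and spread. Gzmb (ENSMUSG00000015437), the main pro-apoptotic granzyme, averaged 227 ± 146 CPM in members and 42.6 ± 36.9 in the others (log2 fold change 2.34 ± 0.33, edgeR adjusted p 0.000852). Gzma (ENSMUSG00000023132), which lies on the same chromosome and strand as Gzmk at 113093825 to 113100981, averaged 395 ± 248 against 45.7 ± 68.0 CPM (log2 fold change 3.97 ± 1.00, edgeR adjusted p 0.0167), so its spread between libraries was wide in both sets. Nkg7, a granule membrane protein, averaged 1536 ± 203 against 569 ± 47.6 CPM (log2 fold change 1.27). Granzyme M ran the other way: Gzmm was found in 8.46% ± 3.53 of thinned members and in 20.4% ± 6.35 of the other cells. Ctsw fell by 0.35 on the log2 scale, but it was not called after thinning to equal depth (adjusted p 0.335 in edgeR), with library size alone (0.0883), or without p16-DTR replicate 3 (0.0511). Perforin (Prf1) was found in 54.9% ± 4.59 of members and 31.0% ± 4.17 of the others, and interferon gamma (Ifng) in 23.7% ± 3.30 and 6.82% ± 3.65. Against the cells without Ccr7, Nkg7 (log2 fold change 1.12) and Prf1 (0.97) of 16 were called, both higher, where 1.46% of all genes were called higher and 2.22% lower. There Gzma was 395 ± 248 against 262 ± 408 CPM and higher in 4 of 6 libraries (edgeR adjusted p 0.435), Gzmb was 227 ± 146 against 177 ± 180 CPM (0.507), and Ctsw had a log2 fold change of 0.04. Against those without Ccr7 or Lef1, in 5 libraries, mean Gzma was lower in members (370 ± 268 against 553 ± 761 CPM, edgeR adjusted p 0.749), Gzmb was 248 ± 154 against 230.5 ± 272 CPM (0.607), and of 16 genes Ctsd and Nkg7 were called higher and Tnf lower. Over all genes 2.48% were called higher and 4.41% lower against that set.

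All 16 naive and central memory genes fell against the full set without Gzmk, with a median log2 fold change of -1.65. Ccr7 averaged 47.2 ± 20.7 CPM in members and 524 ± 101 in the others (log2 fold change -3.71 ± 0.25, edgeR adjusted p 9.82e-06). Satb1, a chromatin organiser of naive T cells, averaged 211 ± 64.9 against 1423 ± 68.6 CPM (log2 fold change -2.97). The fall was smaller for Il7r, the interleukin 7 receptor, at 702 ± 115 against 1309 ± 150 CPM (log2 fold change -1.06), and for Klf2, at 784 ± 125 against 1070.5 ± 102 CPM (log2 fold change -0.61). After thinning, Tcf7 was still found in 51.5% ± 6.44 of members (81.5% ± 4.78 of the others) and Lef1 in 55.2% ± 4.93 (87.4% ± 5.96). Ccr7 was found in 10.4% ± 3.31 and 67.8% ± 8.43. Of 14 genes tested against the cells without Ccr7, 3 were called lower (Satb1, Il7r and Foxp1, with log2 fold changes of -1.76, -0.89 and -0.51) and 0 higher, and Bcl2 (0.02), Bach2 (-0.01) and Klf2 (-0.09) were near 0. Against those without Ccr7 or Lef1 the direction of the list turned: of 12 genes Bach2 (0.86, edgeR adjusted p 0.0165) and Bcl2, a survival factor (1.13, 0.0242), were called higher, Il7r was called lower (-1.35), and the median was 0.71. Both narrower sets were chosen to lack Ccr7, or Ccr7 and Lef1, which are genes of this list, and members were not. The turn therefore cannot be told apart from that choice, whose part was not tested.

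**Figure D2:**
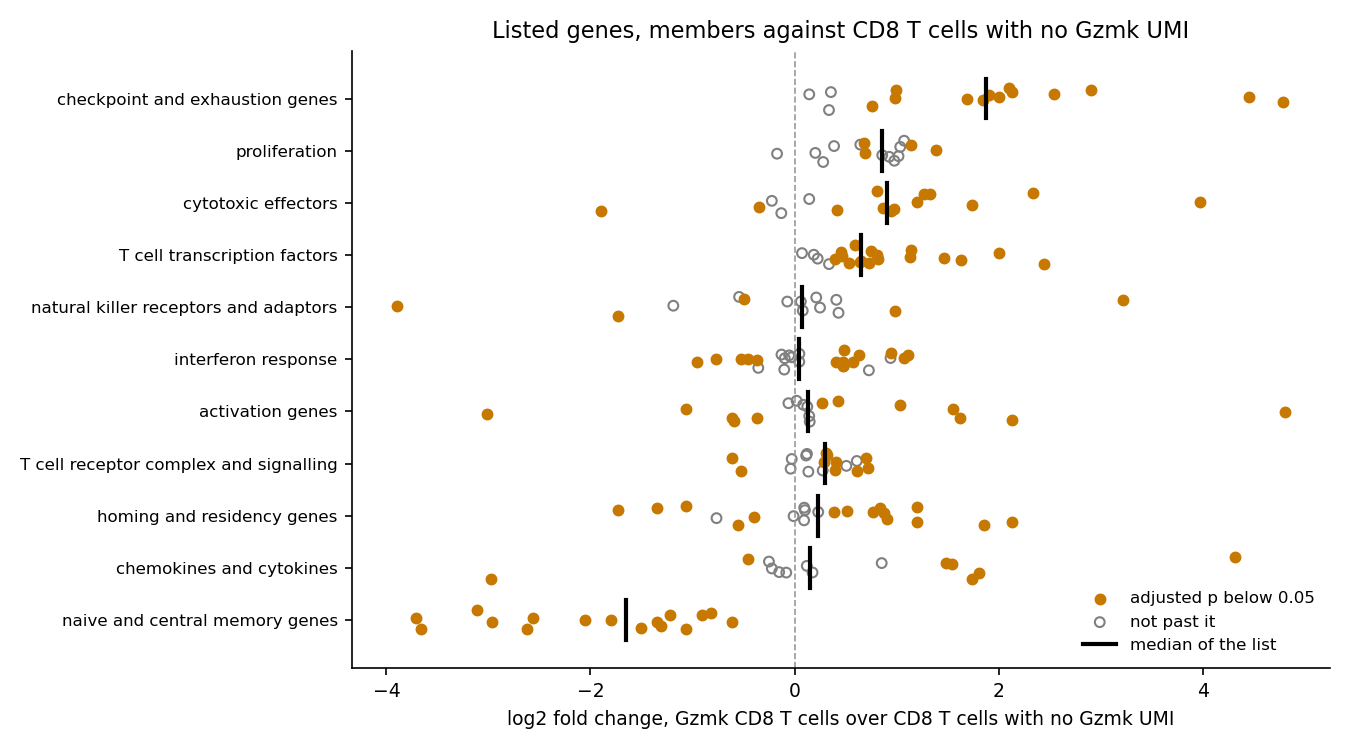
Log2 fold change (horizontal axis) of each listed gene between Gzmk CD8 T cells and CD8 T cells with no Gzmk UMI, by list. Filled points passed an edgeR adjusted p of 0.05, open points did not, and black bars mark list medians. The checkpoint median is 1.88 and the naive median is -1.65, against 0.02 over all genes.

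Of 21 T cell transcription factors, 17 rose, 0 fell and 4 were not called, with a median log2 fold change of 0.65. Maf, which can drive Il10 and inhibitory receptors, averaged 167 ± 21.4 against 28.9 ± 12.6 CPM (log2 fold change 2.44 ± 0.21). Eomes, a T-box factor of memory and exhausted CD8 T cells, was higher in 6 of 6 libraries, at 350.3 ± 75.7 against 77.4 ± 16.1 CPM (log2 fold change 2.00). Its relative T-bet (Tbx21) was found in 37.6% ± 3.25 of thinned members and 21.8% ± 4.65 of the others. Runx1 (log2 fold change 0.82), Rora (0.74), Ikzf3 (0.46) and Id2 (0.45) rose by less. The direction of these last 4 turned against both narrower sets. Rora (-1.14) and Ikzf3 (-0.77) were called lower than in cells without Ccr7, Runx1 (-0.34) and Id2 (-0.37) were not called, and Eomes (2.90) and Batf (0.69) were the factors called higher. Against those without Ccr7 or Lef1, Rora (-1.83), Ikzf3 (-1.62), Runx1 (-0.67) and Ikzf2 (-1.86) were called lower, and Eomes (4.32) and Prdm1 (1.21) higher. Maf was not called against either (0.47 and -0.61).

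Homing genes moved in both directions, with 10 of 21 higher, 5 lower and a median log2 fold change of 0.23. Itga4, the alpha 4 chain of the integrins that bind VCAM-1 and MAdCAM-1, averaged 1320 ± 135 against 276 ± 68.0 CPM (log2 fold change 2.13 ± 0.13), and after thinning it was found in 96.6% ± 2.23 of members and 42.7% ± 11 of the others. Cxcr6, a chemokine receptor of tissue T cells, was not called (79.7 ± 28.6 against 68.1 ± 27.9 CPM, edgeR adjusted p 0.629). Cd69, often used as a residency marker, was lower in members in 6 of 6 libraries, at 195 ± 33.2 against 375 ± 119 CPM (log2 fold change -1.06). Itgae, the CD103 chain, was found in 1.15% ± 0.740 of thinned members and 7.52% ± 3.21 of the others. Ly6c2, common on memory CD8 T cells, fell from 676 ± 127 to 244 ± 114 CPM (log2 fold change -1.73). Against the cells without Ccr7, 2 of 21 homing genes were called higher and 4 lower: Itga4 remained higher (1.26), Cxcr6 was called lower (79.7 ± 28.6 against 293 ± 121 CPM, -1.88), Ly6c2 was lower (-1.18) and Cd69 was not called (-0.44). Against those without Ccr7 or Lef1, Itga4 (1.80) and Cxcr6 (-2.53) were called the same way, and Ly6c2 turned to 0.92 and was not called.

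The remaining lists were mixed. Over all genes tested 13.0% were called higher and 13.7% lower, so counts of 1 to 3 in lists of 10 to 19 genes are near those shares. Of 14 chemokine and cytokine genes 5 rose and 2 fell: Ccl5, an abundant T cell chemokine, averaged 9055 ± 1678 against 2906 ± 526 CPM (log2 fold change 1.49), and Ccl4 averaged 182 ± 38.9 against 59.7 ± 33.9 CPM (1.54), while the TNF family gene Tnfsf8 fell by 2.98 on the log2 scale and Ltb by 0.46. Of 18 genes of the T cell receptor complex outside the rule 8 rose and 2 fell (median log2 fold change 0.30), and of 18 activation genes 7 rose and 5 fell (median 0.13). Of 25 interferon genes 9 rose and 5 fell (median 0.05), and of 14 natural killer receptor genes 2 rose and 3 fell (median 0.07). Of 15 senescence genes 2 rose and 2 fell (median 0.08), of 19 dissociation stress genes 2 rose and 3 fell (median -0.09), and of 10 glucocorticoid-induced genes 1 rose and 2 fell (median -0.10). Proliferation genes had a median of 0.86, but only 4 of 15 were called. Top2a, a topoisomerase of dividing cells, averaged 112 ± 59.1 against 59.1 ± 34.2 CPM and was not called (edgeR adjusted p 0.210). It was called without control replicate 2 (0.00329 in edgeR) and after thinning (0.00884). Among genes outside the lists, the receptor tyrosine kinases Epha3 (239 ± 129 against 12 ± 7.69 CPM, log2 fold change 4.10) and Ret (103 ± 25 against 12.8 ± 9.33 CPM, 2.98) and the gamma chain constant gene Tcrg-C2 (142 ± 54.0 against 11.1 ± 6.53 CPM, 3.50) were among the largest rises. Epha3 was also called against the cells without Ccr7 (3.62) and without Ccr7 or Lef1 (3.98), whereas Ret (0.45 and -0.53), Tcrg-C2 (1.5 and 0.85), Ccl5 (1.06 and 2.35) and Ccl4 (0.74 and 1.65) were not, and Tnfsf8 (-1.53 and 1.49) turned direction.

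The second question was whether members are more frequent in the p16-DTR-labelled libraries. The share of CD8 T cells did not separate the groups. Members were 35.4%, 52.1% and 30.9% of CD8 T cells in the p16-DTR-labelled libraries and 31.3%, 45.9% and 21.8% in the controls, with means of 39.5% ± 11.2 and 33.0% ± 12.1 (SD, n = 3). The groups overlapped, and the two-sided exact permutation test gave p = 0.6, where 0.1 is the smallest that 3 against 3 libraries allow. The difference of 6.50 percentage points was 0.182 without p16-DTR replicate 2 and 0.909 without control replicate 3, and 10.8 and 12.9 without p16-DTR replicate 3 and control replicate 2. As a share of all filtered barcodes, members were 0.824%, 1.77% and 1.36% in the p16-DTR-labelled libraries and 0.487%, 0.742% and 0.742% in the controls, which did not overlap (exact permutation p = 0.1). Without the 153 members that share receptor gene segments, p16-DTR replicate 2 fell to 31.0% of CD8 T cells and to 0.741% of filtered barcodes. The groups then overlapped on the second measure as well, but barely, at 0.7412% against 0.7416% and 0.7421% in control replicates 3 and 2. Cells were removed from p16-DTR replicate 2 alone, so its share could only fall, and the 22 of 80 members of control replicate 1 that held Trbv29 were kept. Among cells with a Ptprc (CD45) UMI, members were 2.16%, 4.32% and 3.01% against 1.58%, 2.27% and 2.09% (exact permutation p = 0.2), and p16-DTR replicate 2 had 1.84% without the 153 members. Such Ptprc cells were 5452 of 14326, 6037 of 14724 and 6740 of 14965 filtered barcodes in the p16-DTR-labelled libraries. In the controls they were 5048 of 16426, 4137 of 12667 and 5499 of 15508. Their part in the shares of filtered barcodes was not tested.

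**Figure D3:**
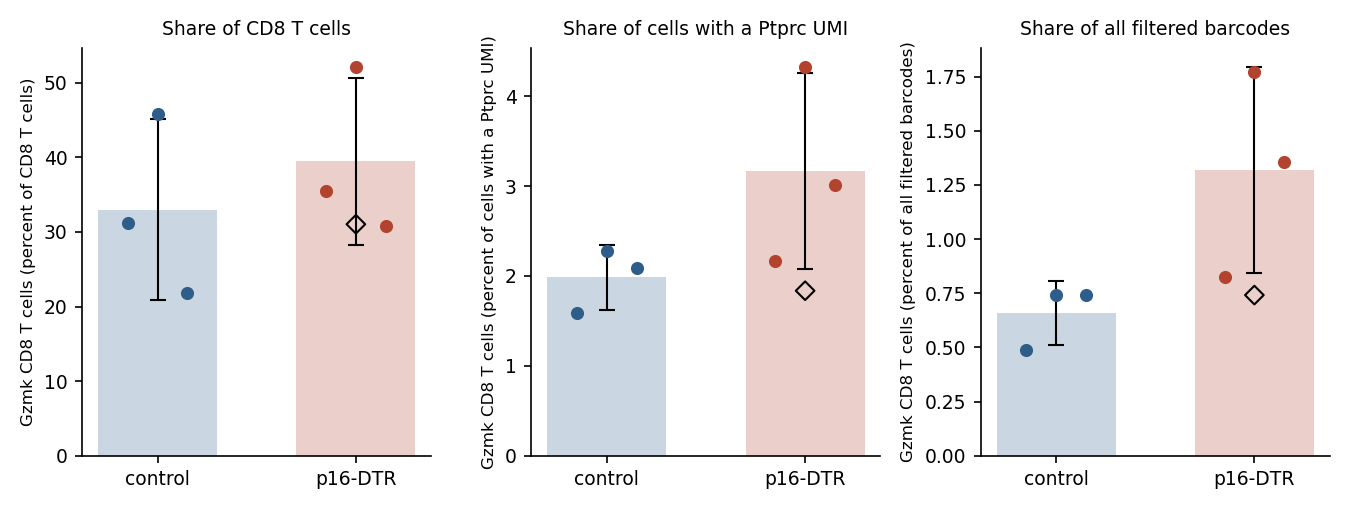
Gzmk CD8 T cells as a percent of CD8 T cells, of cells with a Ptprc UMI and of all filtered barcodes (vertical axes). Points are libraries, bars are means with the SD of 3 libraries, and the open diamond is p16-DTR replicate 2 without the members that hold a Trbv17 or Trav3-1 UMI. The groups overlap in the first panel, at 30.9% to 52.1% against 21.8% to 45.9%.

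The third question was which genes differ between groups within members. No gene passed the adjusted threshold. Of 10626 genes 0 were called by edgeR's quasi-likelihood test (0.0%), 512 had an unadjusted p below 0.05 (4.82%) and DESeq2 called 10. The groups did not overlap for 10.7% of genes, 5.68% higher and 5.03% lower in the p16-DTR-labelled libraries. The lowest edgeR adjusted p of any gene was 0.974, and Hbegf, tdTomato and Ncr1 had too few UMIs to be tested, so the values below are descriptions.

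Cdkn2a (ENSMUSG00000044303, chromosome 4, 89274471 to 89294653), which encodes the cell cycle inhibitors p16 and p19ARF, was higher in all 3 p16-DTR-labelled libraries. Members held 17.5, 26.6 and 21.5 CPM (39, 126 and 78 UMIs) in those libraries and 0, 3.55 and 5.82 CPM (0, 6 and 13 UMIs) in the controls. The log2 fold change was 2.67 ± 0.58, and DESeq2 called it (adjusted p 0.0149). CD8 T cells without Gzmk had the same order, with 11.4, 14.7 and 13.2 CPM against 0.712, 5.16 and 1.53. After thinning, 9.49% ± 1.79 and 1.93% ± 1.70 of members had a Cdkn2a UMI (exact permutation p = 0.1). Counts per gene do not separate its transcripts. Cdkn1a, which encodes p21, overlapped between the groups (157, 54.4 and 84.0 against 79.8, 46.2 and 85.6 CPM). Hbegf, whose human counterpart is the toxin receptor, had 3 to 8 UMIs per library in members, and a tdTomato entry had 0, 1 and 1 in the p16-DTR-labelled libraries and 0 in each control. CD8 T cells without Gzmk had 1, 1 and 2 tdTomato UMIs in the p16-DTR-labelled libraries and 0 in each control, at counts too low to test.

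**Figure D4:**
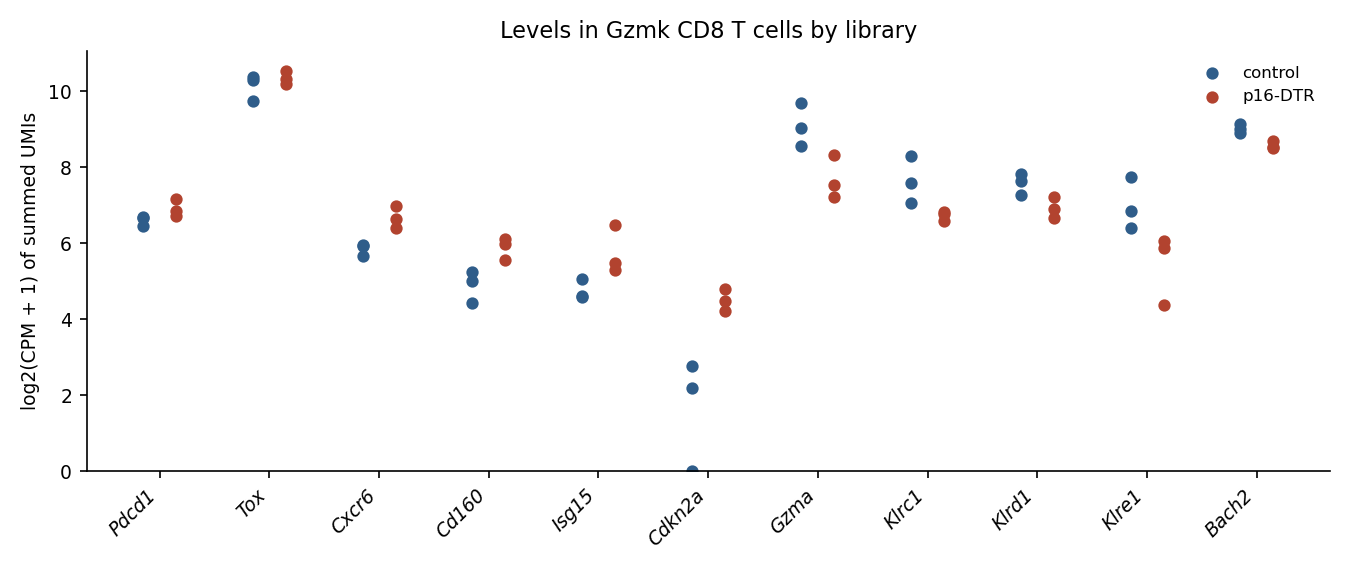
Level of 11 genes in Gzmk CD8 T cells by library, as log2(CPM + 1) of summed UMIs (vertical axis), for control (blue) and p16-DTR (red) libraries, each point 1 library. Cdkn2a lies at 17.5 to 26.6 CPM in the p16-DTR-labelled libraries and at 0 to 5.82 CPM in the controls, and the Tox values overlap. No gene shown passed the edgeR adjusted threshold.

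Some natural killer receptor genes and Gzma had lower values in members of all 3 p16-DTR-labelled libraries than in any control, though none was called. Over all genes tested 5.03% were lower and 5.68% higher without overlap. Of the 16 cytotoxic genes tested outside the rule, Gzma and Tnf were lower without overlap and 0 were higher, with a median of 0.0092, and Gzmb (0.41), Nkg7 (0.09) and Prf1 (-0.03) overlapped. Of 13 measured natural killer receptor genes, 5 were lower and 2 higher with no overlap between groups, and the median log2 fold change was -0.67, against -0.00 over all genes. Klrc1, which encodes the inhibitory receptor NKG2A, was 95.2, 108 and 113 CPM against 311, 132 and 192 (log2 fold change -1.0 ± 0.28). Its partner Klrd1 (CD94) was 118, 99.5 and 147 against 226, 199.6 and 154 CPM (-0.67). Klre1 was 65.1, 19.6 and 58.1 against 212, 114 and 83.8 CPM (-1.54), and Klrc2 53.0, 42.8 and 39.1 against 122, 59.2 and 69.9 (-0.90). Gzma was 185, 149 and 320.3 against 819.5, 520.0 and 375 CPM (-1.39 ± 0.36). Control replicate 1 was the highest library for each of these 5 genes and also held the 16 Ncr1 UMIs given above. Control replicate 2 held the 16 Klra4 UMIs. The part of either in the result was not tested. Without control replicate 1 the log2 fold changes were -0.62 (Klrc1), -0.54 (Klrd1), -1.08 (Klre1), -0.53 (Klrc2) and -1.03 (Gzma). By share of thinned cells Klre1 kept separate groups (13.6%, 4.26% and 15.9% against 43.0%, 21.3% and 20%), while Gzma overlapped, at 16.1%, 14.3% and 13.4% against 39.2%, 12.8% and 26.1%. In the other direction, Cd160 was 45.8, 61.8 and 68.3 against 20.6, 31.4 and 36.7 CPM (0.97), and Cd7 had a log2 fold change of 0.60.

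Interferon-response genes leaned the other way. Of 25 measured, 23 had positive fold changes, with a median log2 fold change of 0.30. With no overlap 7 were higher and 0 lower, where 5.68% of all genes were higher and 5.03% lower. Isg15, a ubiquitin-like protein, was 88.9, 43.4 and 38.6 against 32.3, 23.1 and 23.3 CPM (1.10 ± 0.35), and Ifit1, which binds viral RNA, was 26.0, 18.6 and 14.0 against 8.95, 4.74 and 9.41 CPM (1.31 ± 0.35). Ifi27l2a was 320.1, 317 and 232 against 221, 84.7 and 164 CPM (0.88). Chil3, a macrophage gene, moved the same way, at 66.4, 20.5 and 38.3 against 5.50, 0.592 and 14.8 CPM (2.46). It is 1 of 9 myeloid markers tested, whose median was -0.03 and of which no other was without overlap. Lyz2 was 1546, 991 and 1171 against 1218, 108 and 652 CPM (0.90), Fcgr3 had 0.82, and the summed myeloid markers averaged 2423 against 1944 per 1000000 UMIs. Their part in the interferon values was not tested. The others of the list were Usp18 (1.41), Ifi206 (0.49), Ifi203 (0.41) and Gbp7 (0.24). Proliferation genes were positive for 15 of 15 with a median of 0.78, but 0 were without overlap, and Mki67 was found in 9.25% ± 2.90 and 9.94% ± 4.19 of thinned members.

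Single genes of other lists had separate groups in both directions. Over all genes tested 5.68% were higher and 5.03% lower without overlap, so a count of 1 in lists of 16 to 21 genes is near those shares. Of 21 homing genes 3 were higher, Cxcr6, Cd69 (log2 fold change 0.31) and Cxcr3 (0.19), and 1 lower, Itgb1, without overlap (median -0.06), and of 16 checkpoint genes 2 were higher, Pdcd1 and Cd160, and 1 lower, Nr4a2 (median 0.24). Itgb1, the integrin beta 1 chain, was 404, 208 and 392 against 486, 499.9 and 490.0 CPM (log2 fold change -0.56), and Nr4a2 was 343, 373 and 405 against 444, 440.1 and 417 CPM (-0.22). Cxcr6 was 83.9, 125 and 99.1 against 59.9, 49.8 and 60.5 CPM (log2 fold change 0.86 ± 0.16), and 0.50 without the 153 members that share receptor segments. Pdcd1, whose values are given above, had 0.31, and 0.10 without those members. Bach2, which restrains effector genes, was 364, 409.6 and 367 against 480.3, 515 and 561 CPM (-0.45 ± 0.09) and was called by DESeq2 (adjusted p 0.0167). Of 16 naive genes 12 had negative values (median -0.26), and Lef1 and Bach2 were lower with no overlap. Junb, an AP-1 factor, was 1118, 1035 and 1183 against 1313, 1332 and 1402 CPM (-0.28), Dusp4, a phosphatase of MAP kinases, 6.73, 5.27 and 7.44 against 12.4, 13.0 and 9.41 CPM (-0.84) and Ighm 26.5, 36.1 and 35.3 against 50.2, 48.0 and 48.4 CPM (-0.58), whereas Ccng1, a p53 target, was higher at 54.8, 60.3 and 58.7 against 47.5, 45.01 and 48.4 CPM (0.30). Without overlap, Klf6 (0.19) was the 1 higher of 18 stress genes and Junb the 1 lower. Of 16 activation genes Cd69 and Tnfrsf9 (0.48) were higher and Dusp4 and Nr4a2 lower, and of 16 senescence genes Cdkn2a and Ccng1 were higher and Glb1 (-0.29) lower. Among 10 glucocorticoid-induced genes, of which 2 were higher and 1 lower, Fkbp5 was 119.8, 139 and 157 against 58.5, 100.1 and 91.8 CPM (0.72) and Tsc22d3 had 0.32, while Sgk1 had -0.46. Dcn, a proteoglycan of fibroblasts, was 7.18, 4.43 and 5.51 against 15.1, 326 and 153 CPM (-4.91), and DESeq2 called it (adjusted p 0.00959). Of the fibroblast markers summed, 1 member held 35.7% to 83.8% of a library's total, and without the 10% of members richest in markers of other types the Dcn value was -0.93.

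Whether group differences were larger in members than in CD8 T cells without Gzmk was tested as an interaction. Of 12302 genes 0 were called by edgeR (0.0%), 645 had an unadjusted p below 0.05 (5.24%) and DESeq2 called 11. The natural killer receptor genes Klrc1, Klrc2 and Klre1 were among the 7 that DESeq2 called more negative in members (log2 differences -1.33, -1.33 and -2.06, adjusted p 9.04e-05, 0.0108 and 0.00559). Klre1 in CD8 T cells without Gzmk was 84.8, 78.8 and 59.8 CPM in the p16-DTR-labelled libraries and 70.9, 32.2 and 68.7 in the controls, so these overlapped while members did not. Over the 25 interferon genes the median log2 difference was -0.0031, with 12 positive and 13 negative, against 0.0011 over all genes. Over 14 natural killer receptor genes it was -0.84, with 10 negative, and over 15 proliferation genes 1.02, with 15 positive. In each of these lists 0 genes were called by edgeR.

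Members were also uneven among themselves. Of 865 thinned members 156 had a Gzma UMI, and these held Gzmb in 74.4% (25.5% of the rest), Klre1 in 39.7% (10.4%), Klrd1 in 59.0% (31.6%) and S1pr5, a receptor for exit from tissue, in 18.6% (1.55%). They held Tcf7 in 28.8% (56.1%) and Tox in 70.5% (89.4%). The direction for Gzmb, Klre1 and Klrd1 was the same in 6 of 6 libraries and that for S1pr5 in 5. The 307 members with a Pdcd1 UMI held Tox in 98.4% (79.2%), Lag3 in 14.7% (6.63%) and Tigit in 52.1% (39.8%), whereas Pdcd1 itself was found in 32.1% of members with Gzma and 36.2% of those without. These shares pool cells of all libraries and carry no test.

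The use of T cell receptor beta variable segments shows how many cells may share a receptor. In cells with UMIs of exactly 1 of 35 Trbv genes, the most used gene took 23.9% (Trbv3, of 46 cells), 65.6% (Trbv17, of 128) and 13.5% (Trbv29, of 89) of members in the p16-DTR-labelled libraries. In the controls it took 43.8% (Trbv29, of 48), 22.9% (Trbv3, of 48) and 13.1% (Trbv16, of 61). In CD8 T cells without Gzmk it took 12.1% to 19.4%. The share was higher in members in 5 of 6 libraries, with means of 30.5% ± 20.5 and 15.9% ± 2.95 (paired exact permutation p = 0.0938), and 23.4% and 15.2% without p16-DTR replicate 2 (p = 0.1875, exact). In cells with at least 2 UMIs of the gene the means were 32.9% and 22.4%, higher in members in 4 of 6 libraries (paired exact permutation p = 0.406), and without p16-DTR replicate 2 they were 24.4% and 23.6% (p = 0.8125, exact). The Simpson index, the chance that 2 cells with exactly 1 Trbv gene hold the same gene, was 0.442 in members of p16-DTR replicate 2 and 0.207 in those of control replicate 1. Its means were 0.162 in members and 0.0738 in CD8 T cells without Gzmk (paired exact permutation p = 0.125). Segments are read here from 3' gene counts, which gave exactly 1 Trbv gene in 39.0% to 60% of members per library and do not give the receptor sequence.

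**Figure D5:**
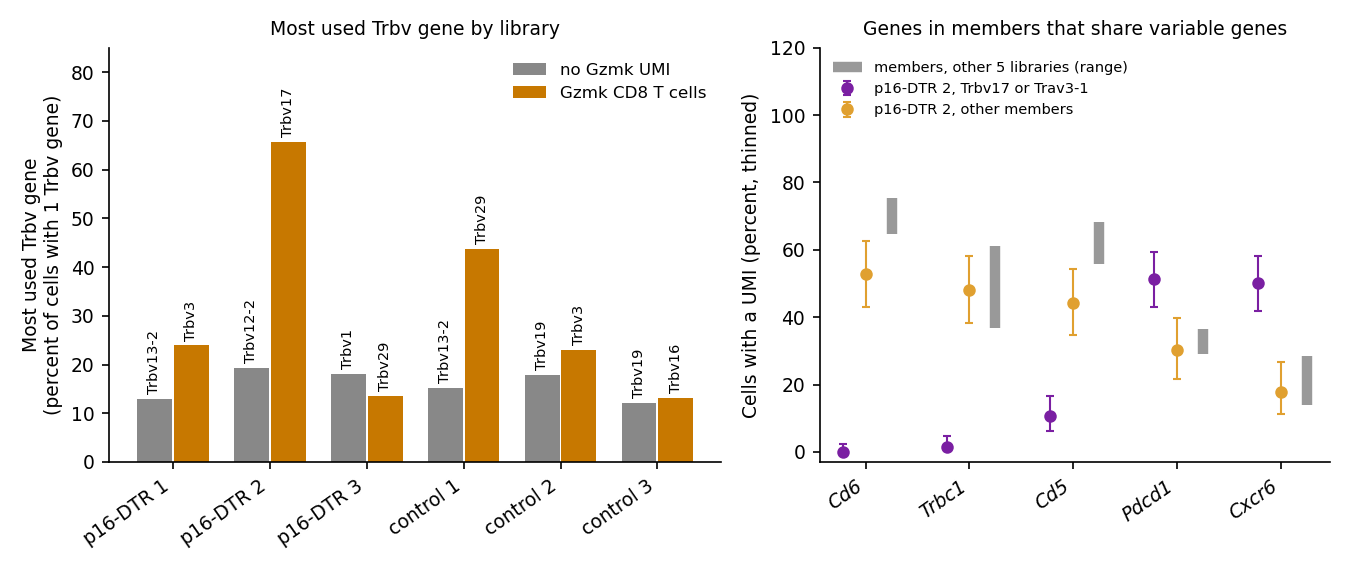
Left, the most used Trbv gene as a percent of cells with exactly 1 Trbv gene, by library, in CD8 T cells with no Gzmk UMI (grey) and Gzmk CD8 T cells (orange). Right, percent of thinned cells with a UMI in members of p16-DTR replicate 2 with (purple) or without (yellow) a Trbv17 or Trav3-1 UMI, with exact 95% intervals, and the range of members in the other 5 libraries (grey). Cd6 is at 0% in the first set and at 52.8% in the second.

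In p16-DTR replicate 2, 125 of 261 members (47.9%) held a UMI of Trbv17 (chromosome 6, 41163062 to 41163556), 82 held Trav3-1 (chromosome 14, 52580665 to 52581213), 54 both and 153 either. In the other libraries 1 to 3 members held either. Of 58 Trbv17 members with any alpha variable UMI, 51 held Trav3-1 and no other, whereas 41 of the 125 also held another Trbv gene. Of the 82 members with Trav3-1 only 54 also had a Trbv17 UMI, so a segment can be missed in a cell. The other 108 members may thus include cells with the same segments, and the split is not a clean one. The 153 cells and the other 108 members of this mouse had close depths (medians of 14616 and 14094.5 UMIs). They were set apart after their values were seen, and what follows describes 1 mouse, without a test.

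The cells that share these segments lacked Cd6, which encodes a scavenger-type receptor that tunes T cell activation (chromosome 19, 10789341 to 10830058, minus strand). After thinning, Cd6 was found in 0% of 152 such cells (exact 95% interval to 2.40%) and in 52.8% of the 106 other members, and in 64.7% to 75.4% of members of the other libraries in the same draw. Before thinning, the 153 cells held 1 Cd6 UMI in all and the other 108 held 422. Its neighbour and relative Cd5 was found in 10.5% against 44.3% (35.9 and 192 CPM). Slc15a3, the next gene on the other side of Cd6, was also lower, at 5.86 against 19.4 CPM (16 and 39 UMIs, with 8.88 to 31.7 CPM in the other libraries). The values of 4 other genes nearby were close in both sets: Ddb1 was 56.8 and 45.2 CPM, Vps37c 13.2 and 12.4, Tmem109 27.1 and 29.8 and Prpf19 34.4 and 30.3. Trbc1, 1 of the 2 beta chain constant genes, was found in 1.32% against 48.1%, and Trbc2 was 3821 against 1872 CPM.

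Shares of other genes also differed between these cells and the other members of the library. Pdcd1 was found in 51.3% against 30.2%, Ctla4 in 84.9% against 66.0%, Tox in 98.7% against 85.8% and Cxcr6 in 50.0% against 17.9%. Epha3 was found in 74.3% against 50.9% and Tcrg-C2 in 67.1% against 41.5%. Lower shares were seen for Dpp4 (CD26; 13.2% against 50.0%), Ccr2 (9.21% against 41.5%) and Klrk1, which encodes NKG2D (6.58% against 32.1%). Gzmb was close, at 36.8% and 32.1%, and Cdkn2a was 33.7 and 16.9 CPM.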

How the data were processed

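The values used were the unnormalized UMI counts of 6 deposited gene-by-barcode matrices, which the authors made with Cell Ranger 8.0.1 on mm10, per the submitters' processing notes. Barcodes were filtered and cells chosen as the report states. Counts were summed per library and cell set, genes were kept by edgeR's filterByExpr, and edgeR 4.0.16 quasi-likelihood tests with TMM scaling and Benjamini-Hochberg adjustment (threshold 0.05) were fitted over all genes in R 4.3.3. The fits between cell sets had the library as a block. DESeq2 1.42.0 was an alternative. Shares of cells with a UMI were computed after thinning to 5000 UMIs, which left out 6 members and 28 CD8 T cells without Gzmk, and compared by two-sided exact permutation tests over libraries. No doublet caller was run. Some genes, and 1 planned comparison of members with a smaller cell set, are not reported here. Comparison cells without Ccr7, or without Ccr7 and Lef1, were alternatives chosen after seeing the data.

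The members and all gene lists were chosen with earlier results of these data known. Named genes were the gate genes, Pdcd1, Tox, Cdkn2a, Cdkn1a, Hbegf and tdTomato. Between cell sets they were also the 10 called genes per direction with the largest fold change at a mean of at least 50 CPM and 1 direction in all libraries, and up to 4 members of each list by mean CPM. Between groups, where fewer than 10 genes were called, they were list genes with an unadjusted p below 0.05 and no overlap. Other genes, among them those given as thinned shares, were chosen after their values were seen. Alternatives were other scalings, filters, gates, thinning and leaving out each library. Each library came from 1 mouse. On simulated counts for the comparison of groups in members (10626 genes), 37.0% of 200 genes changed 2-fold and 82.0% of 200 changed 4-fold were recovered.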

Additional observations from a re-analysis of the deposited data

How the results depend on the processing

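With 3 libraries a group, no exact test between groups can fall below 0.1, and 3' counts give neither receptor sequences nor separate Cdkn2a transcripts. Of 1387 alternative values for 75 single genes, 1318 kept their direction and side of the threshold. This pools genes named between cell sets with genes named between groups. None of the latter was called in the main fit, so they had little room to change side. Cdkn1a between groups ranged from -0.046 (reversed, without p16-DTR replicate 1) to 0.77 with 1 library left out, and reversed to -0.24 without the 10% of cells richest in markers of other types and to -0.091 without cells of over 50000 UMIs; the cause was not tested. The planned removal of cells with at least 2 UMIs of such markers was not run, because it left 0 to 6 cells per library, and the removal of the top 10%, of cells over 50000 UMIs and of the Trbv17 or Trav3-1 members, and the narrower comparison cells, were chosen after seeing the data.

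Against CD8 T cells without Gzmk, thinning left 2040 called genes, 983 higher, with fewer genes tested (8201). Library size alone gave 3130 higher and 1029 lower. Narrower comparison cells changed most: without Ccr7 edgeR called 359 genes, 142 higher and 217 lower, and without Ccr7 or Lef1 600, 216 higher and 384 lower, with fewer cells and genes. Without Ccr7, these log2 fold changes reversed: Bcl2 0.020, Ctsw 0.044, Id2 -0.37, Ikzf3 -0.77, Itgb1 -0.30, Klrk1 -0.66, Rora -1.14 and Runx1 -0.34. Without Ccr7 or Lef1, those of Actn1 (0.64), Bcl2 (1.13), Ctsw (0.79), Fam241a (0.34), Foxp1 (0.20), Id2 (-0.58), Ikzf3 (-1.62), Klf2 (0.75), Klrk1 (-0.24), Ly6c2 (0.92), Maf (-0.61), Nsg2 (1.33), Ret (-0.53), Rora (-1.83), Runx1 (-0.67) and Tnfsf8 (1.49) did.

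Between groups DESeq2 called 10 genes, 1 higher (Cdkn2a) and 9 lower, and edgeR called 0 to 3 genes when 1 library was left out, the 3 (C4b, Clec3b and Dcn, all lower) without control replicate 1. For the interaction DESeq2 called 11, 4 higher and 7 lower, and edgeR with no filter called 5, 1 higher and 4 lower. Without the Trbv17 or Trav3-1 members of p16-DTR replicate 2, the difference in the share of CD8 T cells reversed to -0.521 percentage points (exact permutation p = 0.8), in an alternative that lowers that library alone. With 1 library left out, the label check differences were 29.6 to 32.6 percentage points for Pdcd1 and 44.8 to 47.9 for Tox, each with an exact p of 0.0625, the smallest that 5 pairs allow.

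The labels do not say whether the replicate numbers pair the libraries. Same-numbered libraries had correlations of -0.030, 0.063 and 0.019 in the deviations of members' expression from group means. These values cannot tell whether the shares of members pair, because they measure expression. The shares of CD8 T cells had the same order by number in both groups. With a replicate block, edgeR called 0 genes between groups, and 417 passed the threshold before adjustment. For the share of members, edgeR's quasi-likelihood model of cell numbers gave a log2 fold change of 0.308 ± 0.11 (SE) with the replicate block and 0.277 ± 0.36 without it, and only the first passed the threshold.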
